A study of Mus musculus with 12 samples.

Results

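De novo fatty acid synthesis builds palmitate from acetyl-CoA in the cytosol, and 10 genes of that pathway were followed here in mouse periocular skin. They were matched by symbol to the rows of the count table: 7 for citrate export, acetyl-CoA supply, chain building and NADPH (*Slc25a1*, *Acly*, *Acss2*, *Acaca*, *Acacb*, *Fasn* and *Me1*) and 3 regulators (*Srebf1*, *Mlxipl* and *Thrsp*). All 10 were found among the 21247 genes of the table, and all 10 were among the 20454 genes with enough counts to be tested. The RNA-seq libraries came from biopsies of eye-skin, taken at 6 weeks of age from BALB/c mice that the labels give as female. One group was ft/ft, mice with a loss-of-function point mutation in filaggrin (*Flg*, an epidermal structural protein) from which the ma mutation of *Tmem79* had been removed. The other was ft/ftMyD88-/-, the same line crossed to mice deficient in MyD88, an adaptor protein of innate receptors such as the toll-like receptors. Each group had 4 libraries. By the labels, filaggrin deficiency is shared by both groups, and no tissue-restricted allele is named in the sources. Wild-type libraries were not analysed here, so every value compares the groups as labelled, with and without MyD88 deficiency on an ft/ft background. Sex-linked transcripts also separated the groups, as given below.

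In this pathway, SLC25A1 carries citrate out of the mitochondrion and ACLY splits it into acetyl-CoA, while ACSS2 makes acetyl-CoA from acetate. Acetyl-CoA carboxylase then forms malonyl-CoA. Its isozyme ACACA is cytosolic and feeds chain building, and its isozyme ACACB sits at the mitochondrial outer membrane, where malonyl-CoA restrains fatty acid import for oxidation. FASN assembles palmitate with NADPH, part of which comes from malic enzyme, ME1. SREBF1 and MLXIPL (ChREBP) are transcription factors that respond to insulin and sterol signals and to carbohydrate, and THRSP is a small thyroid hormone-responsive protein of lipogenic tissues. In skin the pathway is best known from sebaceous and meibomian glands, whose cells fill with lipid, and from adipocytes.

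The libraries held 18941705 to 29255129 counts each in ft/ft mice and 15802957 to 27037997 in ft/ftMyD88-/-. The sex-linked genes went against the labels of 1 group. *Xist* had 0 or 1 count in each ft/ft library and 567 to 1964 counts in the ft/ftMyD88-/- libraries, and the sum of 4 Y-linked genes was 132 to 164 CPM (counts scaled to a common library size) in ft/ft libraries against 0 to 1.31 CPM in ft/ftMyD88-/-. Sex and genotype therefore cannot be told apart in any difference below. Transcripts of *Myd88* itself were called higher, not lower, in ft/ftMyD88-/-, at 41.2 ± 7.29 CPM (SD, n = 4) against 30.7 ± 4.74 (SD, n = 4) in ft/ft (adjusted p = 0.0484 by edgeR), so every direction rests on the labels. Counts per gene do not show whether part of *Myd88* was deleted. *Flg* averaged 242 ± 39.5 CPM in ft/ftMyD88-/- against 103 ± 69.8 in ft/ft (adjusted p = 0.12 by edgeR), and *Tmem79* was at 16.4 ± 2.10 and 59.2 ± 2.92 CPM (adjusted p = 5.08e-07 by edgeR). Whether the groups carry the same *Tmem79* allele was not tested. Epithelial, adipocyte and muscle markers were present in every library.

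The bases upstream of the RefSeq start sites (GRCm38.p6) show which regulatory letters the genes carry, and those of *Acss2* and *Me1*, lower in ft/ftMyD88-/-, and of *Fasn*, which did not pass the test, are printed 5′ to 3′ on the strand of the gene. Capitals mark matches, on either strand, to the NF-Y box (CCAAT) or the GC box (GGGCGG). Bases that GENCODE M21 places in a UTR were cut from the 3′ end.
Acss2, chr2:155517793-155517947, plus strand: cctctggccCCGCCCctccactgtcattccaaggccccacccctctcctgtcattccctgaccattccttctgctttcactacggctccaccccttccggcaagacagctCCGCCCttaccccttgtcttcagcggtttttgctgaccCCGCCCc
Me1, chr9:86695954-86696164, minus strand: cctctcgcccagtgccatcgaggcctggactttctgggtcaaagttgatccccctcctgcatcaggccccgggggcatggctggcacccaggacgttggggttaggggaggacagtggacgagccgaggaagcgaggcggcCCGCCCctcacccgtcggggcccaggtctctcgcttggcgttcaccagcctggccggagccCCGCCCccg
Fasn, chr11:120824548-120824797, minus strand: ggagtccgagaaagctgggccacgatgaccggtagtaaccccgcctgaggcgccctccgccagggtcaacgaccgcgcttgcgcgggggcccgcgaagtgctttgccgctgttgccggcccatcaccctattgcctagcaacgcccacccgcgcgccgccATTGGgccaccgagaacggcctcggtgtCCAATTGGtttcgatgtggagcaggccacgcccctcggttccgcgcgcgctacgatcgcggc
The *Acss2* stretch holds 3 GC boxes, that of *Me1* holds 2, and that of *Fasn* holds 3 NF-Y boxes and no GC box. The *Fasn* matches at -62 and -59 lie on opposite strands and overlap within CCAATTGG, so they share 1 run of capitals. The bases cut from *Acss2* held an NF-Y box (at -73 from the start site) and another GC box (at -37). Another GC box of *Me1* (at -42) ran into its cut bases, and the other *Me1* window, not printed, held an NF-Y box (at -208). RefSeq gives 14 windows for the 10 genes. Over their full 250 upstream bases, CCAAT was found in 9 of the 14 and in 33.8% of all 32851 mouse windows of the same length, and GGGCGG in 7 of the 14 and in 32.7% of all. An SREBP element (TCACNCCAC) was found in 1 of the 14, a window of *Mlxipl*, and in 1.05% of all windows, and an E-box (CACGTG) in 2 of the 14 and in 6.02%. An LXR direct-repeat element occurred in 0 of the 14 and in 0.0152% of all windows. The single *Acacb* window lies inside the gene, directly before an internal exon, and is not printed. The single *Acaca* window, the *Mlxipl* window with the SREBP element and all *Srebf1* windows also lie inside the RefSeq span of their genes. So do the unprinted *Me1* window and the printed *Fasn* window. These matches describe letters and do not show binding.

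Of the 10 genes, 3 were lower in ft/ftMyD88-/- and 0 were higher: *Acacb*, *Acss2* and *Me1* (edgeR quasi-likelihood test over all genes, Benjamini-Hochberg adjusted p under 0.05). Across all 20454 genes, 12.3% were called lower and 10.9% higher. The log2 fold change, ft/ftMyD88-/- over ft/ft, was negative for 9 of the 10, and its median was -0.33 against 0.01 over all genes tested. In 4 genes, the 3 called and *Acly*, every ft/ftMyD88-/- library lay below every ft/ft library, as in 14.2% of all genes, and in 0 genes every library lay above, as in 12.5% of all genes. Scaling by library size alone raised the median of all genes from 0.01 to 0.19. Relative to that median, the 10 genes stood at -0.34 under both scalings. In whole biopsies, fewer cells of a type and less RNA per cell cannot be told apart.

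**Figure D1:**
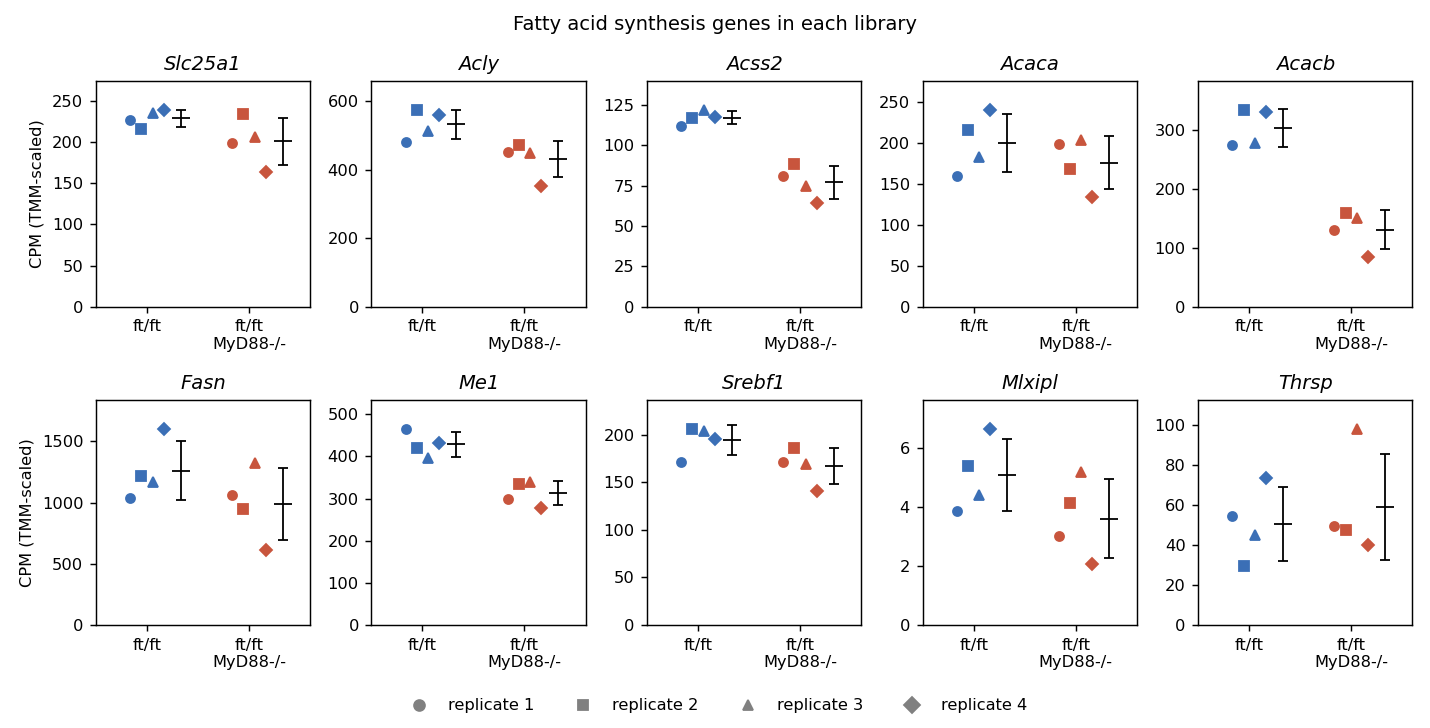
CPM (counts scaled to a common library size) of each of the 10 genes in each library, from 0, with 1 panel per gene; dots are libraries labelled with their replicate number and bars are group means with SD (n = 4). The groups do not overlap for *Acacb*, *Acss2*, *Me1* and *Acly*, and ft/ftMyD88-/- replicate 4 is the lowest of its group in all 10 panels.

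*Slc25a1*, the mitochondrial citrate carrier (GRCm38.p6 chr16:17925211-17928219), stood at 227, 216, 236 and 239 CPM in ft/ft replicates 1 to 4 and at 199, 235, 206 and 165 in ft/ftMyD88-/-. Of the ft/ftMyD88-/- libraries, 3 were below the ft/ft range and 1 was inside it. It differed by -0.19 on the log2 scale (SE, the standard error, 0.106, adjusted p = 0.221 by edgeR). *Acly*, ATP citrate lyase (chr11:100476352-100528000), was at 482, 573, 514 and 559 CPM in the ft/ft libraries and at 453, 473, 447 and 354 in those of ft/ftMyD88-/-. The groups did not overlap, although the gap between the nearest libraries was small. The log2 difference of -0.30 (SE 0.108) missed the threshold in edgeR (adjusted p = 0.0632) and passed it in DESeq2 (-0.29, adjusted p = 0.0443).

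*Acss2*, the cytosolic and nuclear acetyl-CoA synthetase (chr2:155518043-155562743), was at 112, 117, 122 and 118 CPM in the ft/ft libraries and at 81.0, 88.2, 74.7 and 64.0 in those of ft/ftMyD88-/-. Every ft/ftMyD88-/- library was well below every ft/ft library, and the ft/ft libraries varied by only 3.34% (coefficient of variation). It was 1.52-fold lower, or -0.61 on the log2 scale (SE 0.0993, adjusted p = 0.00139 by edgeR). In GENCODE M21 the gene overlaps *Ggt7*, *Gss* and *Acss2os* on the opposite strand, and as the strand setting of the counting is not given, reads of these genes and of *Acss2* may not have been separated.

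*Acaca*, the cytosolic carboxylase (chr11:84129635-84401651), was at 159.8, 216, 183 and 239.7 CPM in the ft/ft libraries and at 199, 168, 203 and 134 in those of ft/ftMyD88-/-. The groups overlapped widely, at -0.18 on the log2 scale (SE 0.152, adjusted p = 0.426 by edgeR). *Acacb*, the mitochondria-associated carboxylase (chr5:114146321-114250761), was at 274, 334, 278 and 331 CPM in the ft/ft libraries and at 129.7, 159, 151 and 84.2 in those of ft/ftMyD88-/-. The groups were far apart, and ft/ftMyD88-/- replicate 4 was the lowest library. At 2.32-fold lower, a log2 change of -1.22 (SE 0.175, adjusted p = 9.76e-04 by edgeR), it differed most of the 10 genes.

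*Fasn*, fatty acid synthase (chr11:120805958-120825166), was the most abundant of the 10 in CPM, at 1041, 1221, 1172 and 1602 in ft/ft and at 1063, 945, 1325 and 614 in ft/ftMyD88-/-. Replicate 4 was the highest library in ft/ft and the lowest in ft/ftMyD88-/-, and 2 of the 4 ft/ftMyD88-/- libraries lay inside the ft/ft range. The estimate was -0.35 on the log2 scale (SE 0.215, adjusted p = 0.268 by edgeR), and leaving out single libraries moved it between -0.51 and -0.17. *Me1*, cytosolic malic enzyme (chr9:86581363-86695914), was at 465, 421, 396 and 432 CPM in the ft/ft libraries and at 300.1, 335, 340.1 and 278 in those of ft/ftMyD88-/-. Every ft/ftMyD88-/- library was below every ft/ft library. It was 1.37-fold lower, a log2 change of -0.45 (SE 0.0957, adjusted p = 0.00555 by edgeR). With library size alone as the scaling, the log2 fold change of *Me1* was -0.27 and the adjusted p was 0.0537.

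Of the regulators, none passed the test. *Srebf1*, the lipogenic SREBP (chr11:60199084-60224186), was at 171, 206, 203 and 195 CPM in the ft/ft libraries and at 171, 186, 169 and 141 in those of ft/ftMyD88-/-. The change came to -0.22 on the log2 scale (SE 0.101, adjusted p = 0.139 by edgeR), and it overlaps *Rai1* on the opposite strand. *Mlxipl*, encoding ChREBP (chr5:135089890-135139768), was scarce, with 79 to 173 counts per ft/ft library and 34 to 152 per ft/ftMyD88-/- library. That came to 3.86, 5.38, 4.41 and 6.63 CPM against 3.02, 4.12, 5.17 and 2.07, which overlap. On the log2 scale it stood at -0.48 with an SE of 0.261 (adjusted p = 0.206 by edgeR), and a difference was not detectable at this depth and spread.

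*Thrsp* (chr7:97412933-97417550) was the most variable of the 10 genes, at 54.6, 29.5, 45.1 and 73.7 CPM in the ft/ft libraries and at 49.6, 47.8, 98.3 and 40.2 in those of ft/ftMyD88-/-. Replicate 3 of ft/ftMyD88-/- was the highest library and the others lay inside the ft/ft range. The log2 estimate of 0.22 (SE 0.380, adjusted p = 0.724 by edgeR) turned to -0.13 without that library. Summed CPM of 14 adipocyte markers, among them *Adipoq* and *Plin1*, was also highest in ft/ft replicate 4 (3749) and ft/ftMyD88-/- replicate 3 (3498), against 1730 to 2945 in the other 6 libraries. The part of adipocyte content in the *Thrsp* values was not tested.

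**Figure D2:**
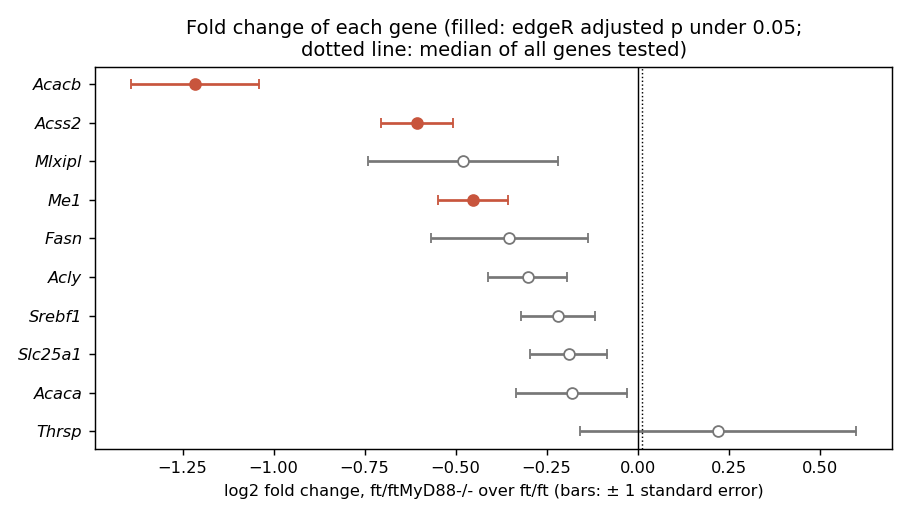
Log2 fold change, ft/ftMyD88-/- over ft/ft, of the 10 genes with bars of 1 standard error; filled symbols passed the edgeR test at an adjusted p under 0.05 and the dotted line is the median of all genes tested (0.01). *Acacb* (-1.22), *Acss2* (-0.61) and *Me1* (-0.45) are filled, and *Thrsp* (0.22) is the only gene right of the line.

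The 10 genes together took 0.276% to 0.362% of all counts in the ft/ft libraries and 0.195% to 0.328% in the ft/ftMyD88-/- libraries. Replicate 4 of ft/ftMyD88-/- was the lowest of its group for 10 of the 10 genes and the lowest of all 8 libraries for 9. In ft/ft, replicate 1 was the lowest for 7 of the 10 and replicate 4 the highest for 5. Without ft/ftMyD88-/- replicate 4 the median log2 fold change of the 10 was -0.19. The number called stayed at 3 lower and 0 higher with each library left out in turn, that one included.

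**Figure D3:**
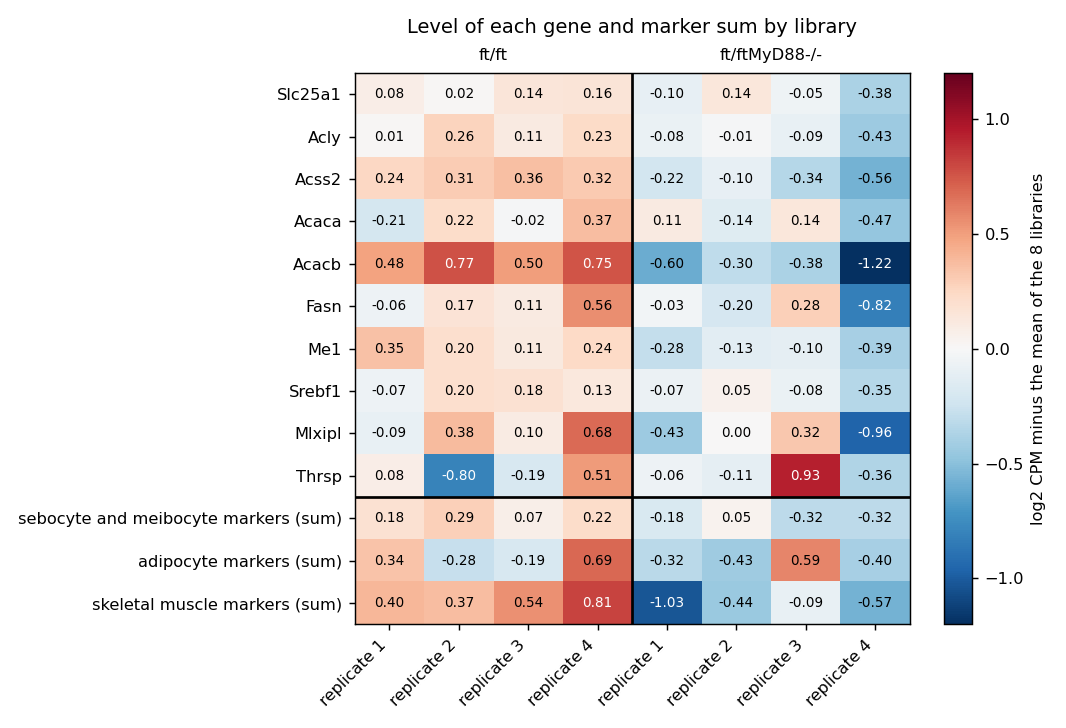
Log2 CPM of the 10 genes, and of the summed sebocyte, adipocyte and skeletal muscle markers, in each library, centred on the mean of the 8 libraries of each row. The *Acacb*, *Acss2*, *Me1*, *Acly* and muscle rows are above their means in all 4 ft/ft libraries and below in all 4 ft/ftMyD88-/- libraries. Replicate 4 of ft/ftMyD88-/- is low in 9 of the 10 gene rows relative to every other library.

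Levels of different genes were compared per kilobase of the longest principal transcript (GENCODE M21), which assumes that reads cover whole transcripts. The labels name a fixed-tissue protocol and Cell Ranger, and whether the counts meet that assumption was not examined. The order between genes holds only under it. In ft/ft, *Slc25a1* (138 CPM per kb), *Me1* (130.4), *Fasn* (125) and *Acly* (121) formed the upper group, and neighbours in that order overlapped between libraries. *Srebf1* (45.1), *Acss2* (40.0), *Thrsp* (39.7) and *Acacb* (34.6) followed, each overlapping the next. *Acaca* (20.98 CPM per kb) lay below *Acacb* without overlap, and *Mlxipl* (1.40) was far below. In ft/ftMyD88-/- the upper 4 were the same genes, at 121, 98.3, 95.3 and 98.2 CPM per kb for *Slc25a1*, *Acly*, *Me1* and *Fasn*. *Thrsp* (46.2) and *Srebf1* (38.8) came next, then *Acss2* (26.3), and *Acaca* (18.5) now stood above *Acacb* (14.9) in 3 of 4 libraries, with overlapping ranges. *Mlxipl* was again the lowest at 0.993 CPM per kb.

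Ratios of 2 genes within a library need no scaling between libraries, and 3 were compared by exact permutation of the group labels, 2-sided, where 4 against 4 libraries cannot give a p below 0.0286. The count of *Acacb* over that of *Acaca* was 1.72, 1.55, 1.52 and 1.38 in ft/ft replicates 1 to 4 and 0.651, 0.951, 0.740 and 0.628 in ft/ftMyD88-/-. *Acacb* counts exceeded *Acaca* counts in all 4 ft/ft libraries and in none of the ft/ftMyD88-/- libraries. The mean log2 ratio was 0.62 ± 0.129 and -0.45 ± 0.271 (SD, n = 4), a difference of -1.07 (exact permutation p = 0.0286, 0.0429 after Benjamini-Hochberg adjustment over the 3 ratios). If reads cover whole transcripts, which was not examined, these ratios depend on transcript length. The annotated length is the same in both groups, and isoform use was not tested.

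*Acss2* over *Acly*, the acetate route to acetyl-CoA over the citrate route, was 0.233, 0.204, 0.237 and 0.211 in ft/ft and 0.179, 0.186, 0.167 and 0.181 in ft/ftMyD88-/-. All 4 ft/ftMyD88-/- ratios were lower than the ft/ft ratios. The log2 difference was -0.31 (exact permutation p = 0.0286, adjusted p = 0.0429), so *Acss2* differed by more than *Acly* did. *Thrsp* over its paralog *Mid1ip1*, an activator of acetyl-CoA carboxylase polymerization, overlapped between the groups, with mean log2 ratios of -1.37 ± 0.521 and -0.98 ± 0.571 (SD, n = 4; exact permutation p = 0.429, adjusted p = 0.429). *Mid1ip1* averaged 124 ± 3.31 CPM in ft/ft against 109.9 ± 14.2 in ft/ftMyD88-/- (SD, n = 4; adjusted p = 0.197 by edgeR).

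**Figure D4:**
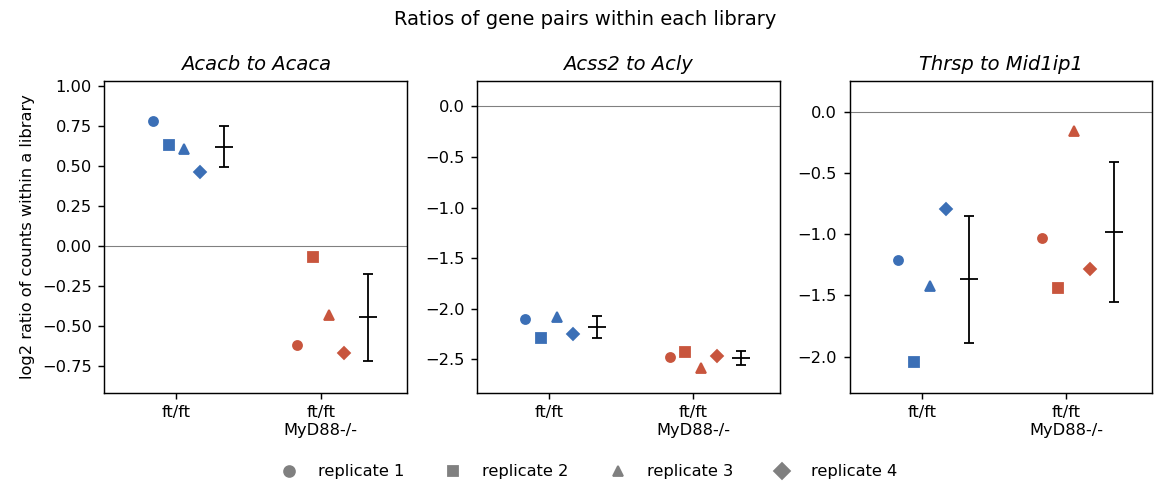
Log2 ratio of the counts of 2 genes within each library, in 3 panels, with dots for libraries labelled by replicate and bars for group means with SD (n = 4). The groups separate for *Acacb* over *Acaca* and for *Acss2* over *Acly* and overlap for *Thrsp* over *Mid1ip1*.

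The genes whose pattern over the 8 libraries was most like that of each of the 10 were sought among 13507 genes with a mean of at least 50 counts. The measure was the root mean square difference of log2 CPM centred on each gene's own mean, which includes the difference between groups. *Acly* and *Srebf1* differed by 0.0697 and were each other's nearest among the 10, at ranks 17 and 14 of all genes. *Fasn* was nearest to *Acaca* among the 10 (0.177, rank 18), and of all genes nearest to *Zhx3* (0.133) and to *Pnpla2*, the adipose triglyceride lipase (0.136). *Acacb* had no other of the 10 near it, the closest being *Acss2* at 0.369 and rank 479. The genes most like *Acacb* were *Slc30a2* (0.156), *Synpo2l* (0.160) and *Wfs1* (0.171).

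*Acss2* was most like *Tmem109* (0.0543), *Aco1*, the cytosolic aconitase (0.0545), and *Acsl4*, a long-chain acyl-CoA synthetase (0.0551). *Me1* was most like *Ccdc47* (0.0499), *Pafah2* (0.0503) and *Tlr3* (0.0516), and the nearest of the 10 was *Acly*, at rank 915. *Thrsp* was most like *Mrap*, the melanocortin receptor accessory protein (0.161), *Pde3b*, a phosphodiesterase of insulin signalling (0.168), and *Rasd1* (0.185). It had *Fasn* as the nearest of the 10, at 0.461 and rank 1229. These likenesses are descriptions over libraries that share a group difference, depth and composition.

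Muscle and sebocyte markers differed between the groups, and most adipocyte markers did not pass the test. Of 12 skeletal muscle markers 11 were lower in ft/ftMyD88-/- and 0 higher, with a median log2 fold change of -0.998. Their summed level was 11048, 10861, 12224 and 14690 CPM in ft/ft against 4106, 6165, 7892 and 5641 in ft/ftMyD88-/-. Of 16 sebocyte and meibocyte markers 9 were lower and 0 higher (median -0.41), or 4 lower and 1 higher with library size alone (median -0.23), among them *Awat2*, a wax synthase, at 1619 ± 132 CPM in ft/ft against 1003 ± 203 in ft/ftMyD88-/- (SD, n = 4). Their sum ranged from 9275 to 10793 CPM in ft/ft, above the 7094 to 9128 of ft/ftMyD88-/-. Of 14 adipocyte markers 0 were lower and 1 was higher (*Adig*, called in only 2 of the 8 fits that left out 1 library), with sums of 1923 to 3749 CPM and of 1730 to 3498. *Adipoq* averaged 87.6 ± 38.0 and 84.2 ± 48.5 CPM (SD, n = 4; adjusted p = 0.945 by edgeR). At an unadjusted p under 0.05, 1 adipocyte marker was lower and 1 higher, the count DESeq2 also gave after adjustment, while limma voom gave 0 and 1. No marker of these lists was at 0 in every library.

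Lists for other cells of the biopsy follow, where 12.3% of all genes were called lower and 10.9% higher. Of 7 basal keratinocyte markers 5 were lower and 0 higher (median -0.59), and of 10 markers of differentiated keratinocytes 5 were lower and 0 higher (median -0.47). Their sums did not overlap, at 14025 to 17176 CPM in ft/ft against 9838 to 12059 in ft/ftMyD88-/- for the basal list and 18969 to 24344 against 13102 to 16325 for the differentiated list. Of 9 T cell markers 8 were higher (median 0.91), and of 11 macrophage and monocyte markers 3 were higher (median 0.24). All 13 anagen hair follicle markers had positive log2 fold changes (median 1.92), of which 4 passed in edgeR and 13 in DESeq2. Their sum was 12211, 1874, 2948 and 7049 CPM in ft/ftMyD88-/- replicates 1 to 4 against 1363 to 2181 in ft/ft. Replicate 2 thus lay inside the ft/ft range. Of those passing in edgeR, *Lef1* and *Trps1* were called in all 8 fits that left out 1 library, and *Msx2* and *Hoxc13* in only 2. All 9 hyperproliferative keratinocyte markers were positive too (median 1.99), with 1 passing in edgeR and 6 in DESeq2. *S100a8* and *S100a9* are in this list and also in that for neutrophils. Of 8 neutrophil markers 1 was lower and 1 higher (median 1.48), of 6 lacrimal and salivary gland markers 2 were lower (median 0.20), and of 7 melanocyte markers 1 was higher (median 0.20). Despite that positive median, the summed lacrimal and salivary markers were lower without overlap, at 54.0 to 83.8 CPM in ft/ftMyD88-/- against 110 to 116 in ft/ft. The part of muscle, gland, keratinocyte or immune cell content in the lower *Acacb*, *Acss2* and *Me1* was not tested.

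Other genes of the pathway were described by lists written for this tissue, by how many passed the same test. Of all genes tested, 12.3% were called lower and 10.9% higher. With library size alone, 1326 of all genes were lower and 4638 higher, so counts under that scaling lean towards higher. Enzymes that lengthen, desaturate or activate the palmitate product held the largest share of lower genes among the 8 lists, with 14 of 25 lower and 2 higher and a median log2 fold change of -0.44. *Elovl6*, which elongates palmitate, was at 921, 790, 644 and 806 CPM in the ft/ft libraries and at 269, 293, 275 and 185 in those of ft/ftMyD88-/-. That came to -1.63 on the log2 scale (SE 0.152, adjusted p = 5.25e-05 by edgeR), larger in size than that of any of the 10 genes. *Scd4*, a stearoyl-CoA desaturase, was at -1.14 (adjusted p = 3.77e-04) and *Tecr*, the reductase that closes each elongation cycle, at -0.66 (adjusted p = 5.72e-04). The *Scd* genes are close paralogs whose reads may not have been fully separated. The 2 higher genes were fatty acid desaturase family members, *Fads2* (0.62, adjusted p = 0.0324) and *Fads3* (1.29, adjusted p = 0.0346). Each was called in only 3 of the 8 fits that left out 1 library, where *Fads2* reached down to 0.40. The list had 10 lower and 4 higher with library size alone.

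Upstream of the pathway, 9 of 22 genes for citrate and acetyl-CoA supply were lower and 1 was higher (median log2 fold change -0.30). *Pdk2*, a kinase that turns pyruvate dehydrogenase off, was at 81.5, 82.8, 89.9 and 95.9 CPM in the ft/ft libraries and at 36.3, 41.3, 53.5 and 36.3 in those of ft/ftMyD88-/- (-1.06 on the log2 scale, SE 0.124, adjusted p = 1.94e-04 by edgeR). *Slc25a11*, the mitochondrial oxoglutarate carrier, was at -0.48 (adjusted p = 9.09e-04). *Me2*, a mitochondrial malic enzyme, was the higher gene, at 17.1, 16.2, 15.95 and 16.6 CPM in ft/ft against 30.9, 24.4, 22.3 and 26.5 in ft/ftMyD88-/-. Its log2 fold change was 0.66 (adjusted p = 0.00163). *Me3*, the other mitochondrial malic enzyme, did not pass the test, at -0.53 (adjusted p = 0.0786), on the same side as *Me1*. The list had 6 lower and 2 higher with library size alone.

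Of 12 other genes for NADPH supply, 2 were lower and 1 higher (median -0.22), where 12.3% of all genes were lower and 10.9% higher. *Idh2*, mitochondrial isocitrate dehydrogenase, fell from 124 to 87.2 CPM (log2 fold change -0.51, adjusted p = 0.00168 by edgeR). *Aldh1l1*, a folate-linked NADPH source, was at -0.40 (adjusted p = 0.0259) and *Rpe*, of the pentose phosphate pathway, at 0.34 (adjusted p = 0.0206). Both were less firm, with *Aldh1l1* called in 4 of the 8 fits that left out 1 library, and *Rpe* in 5 of 8. With library size alone the NADPH list had 1 lower and 2 higher, and *Aldh1l1* missed the threshold (adjusted p = 0.189). Among 15 genes that regulate acetyl-CoA carboxylase or use malonyl-CoA, 5 were lower and 1 higher (median -0.21). *Prkaa2*, a catalytic subunit of the AMP-activated kinase that inhibits the carboxylases, was at -0.61 (adjusted p = 0.00288), and *Mlycd*, which removes malonyl-CoA, was at -0.44 (adjusted p = 0.00427). The higher gene was *Brca1*, whose protein binds phosphorylated ACACA, at 0.80 (adjusted p = 0.0027). Scaled by library size alone, 2 were lower and 1 higher, and *Mlycd* missed the threshold (adjusted p = 0.054).

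Of 18 genes for SREBP processing and co-regulators, 3 were lower and 1 higher, with a median of -0.09. Of all genes, 12.3% were called lower and 10.9% higher. With library size alone the list had 1 lower and 4 higher and a median of 0.09. Under that scaling all genes shifted, with 1326 lower and 4638 higher. Relative to the median of all genes, the list stood at -0.10 under both scalings. *Rxra*, the partner receptor of LXR, was at -0.43 (adjusted p = 0.00412 by edgeR), *Insig2*, which retains SREBP in the endoplasmic reticulum, at -0.41 (adjusted p = 0.0175) and *Usf1*, an E-box factor, at 0.39 (adjusted p = 0.00547). *Insig2* missed the threshold with library size alone (adjusted p = 0.112), and *Rxra* was close to it (adjusted p = 0.0497). Of 10 ChREBP partners and carbohydrate-response genes, 3 were lower and 2 higher (median -0.23). *Mlx*, the obligate partner of ChREBP, was at 0.52 (adjusted p = 0.00357), while *Txnip*, a glucose-responsive target of ChREBP, was at -0.54 (adjusted p = 0.0081) and *Slc2a4*, the insulin-responsive glucose transporter, at -0.66 (adjusted p = 0.0149). With library size alone 0 genes of the list were lower and 2 higher, and *Txnip* and *Slc2a4* missed the threshold (adjusted p = 0.0553 and 0.0644).

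Of 18 genes of insulin, nutrient and thyroid hormone signalling, 5 were lower and 0 higher, with a median of -0.12. Under scaling by library size alone they were 1 and 0, with a median of 0.06. Relative to the median of all genes, the list stood at -0.13 under both scalings. At an unadjusted p under 0.05 they were 6 and 0, with DESeq2 5 and 0, and with limma voom 4 and 0. *Thra*, a thyroid hormone receptor, was at -0.63 (adjusted p = 8.23e-04 by edgeR), *Tsc2*, an inhibitor of mTORC1, at -0.46 (adjusted p = 0.00862) and *Akt2*, an insulin-signalling kinase, at -0.34 (adjusted p = 0.0108). With library size alone *Tsc2* and *Akt2* missed the threshold (adjusted p = 0.0697 and 0.163). The separate mitochondrial fatty acid synthesis system, which makes the precursor of lipoic acid, had 0 of 10 genes lower and 1 higher, with a median of 0.01. At an unadjusted p under 0.05 its counts were 0 and 2, with DESeq2 and with limma voom they were 0 and 1, and with library size alone they were 0 and 3. The higher gene was *Aasdhppt*, which attaches the prosthetic group of both FASN and the mitochondrial acyl carrier protein, at 0.42 (adjusted p = 0.0241). It was called in 5 of the 8 fits that left out 1 library.

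**Figure D5:**
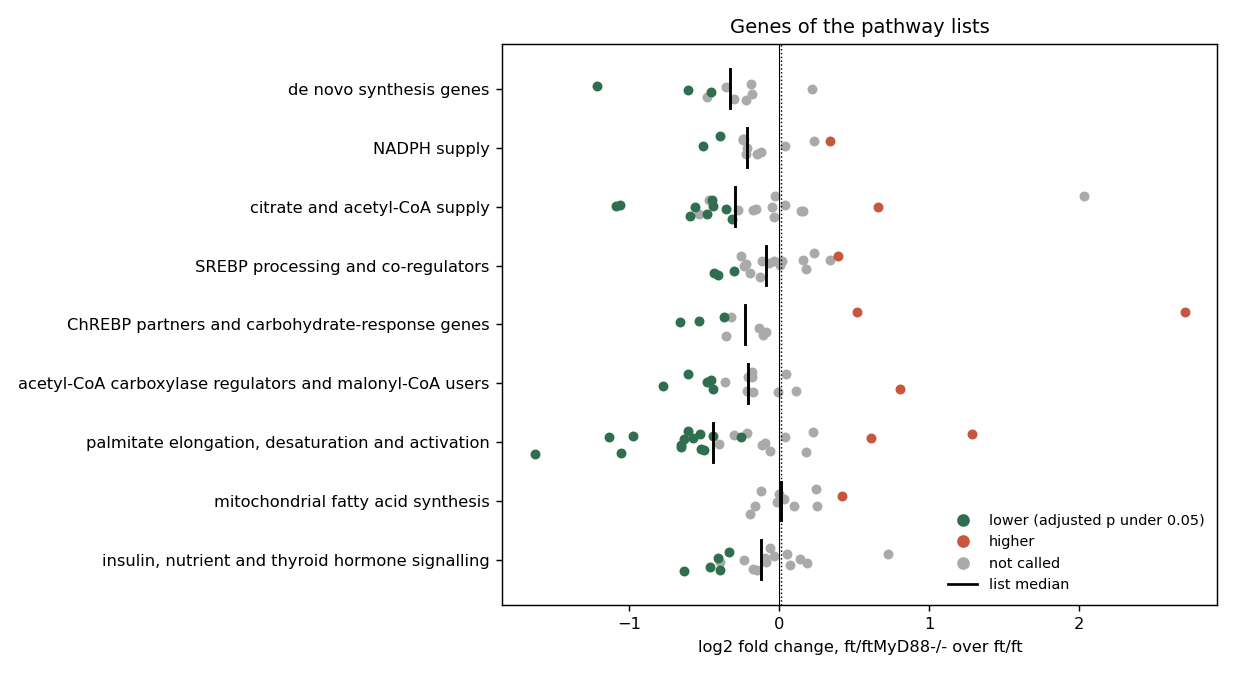
Log2 fold change, ft/ftMyD88-/- over ft/ft, of every tested gene in 8 pathway lists and of the 10 genes, 1 row per list; green symbols passed the edgeR test as lower, red as higher and grey did not pass, and bars are list medians. The elongation and desaturation row has the lowest median (-0.44) and the mitochondrial synthesis row lies around 0 (0.01).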

How the data were processed

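The 8 RNA-seq libraries of periocular skin came in equal numbers from ft/ft and ft/ftMyD88-/- mice. Of the 12 samples mapped to a group from the labels, the 4 WT samples were not analysed here. The authors deposited raw counts per gene, without normalization, which the paper describes as made from polyA-selected TruSeq libraries, single-end reads, HISAT and tophat2 on GRCm38.p6 and HTSeq at default settings. The labels of these 8 samples instead name total RNA, a fixed-tissue protocol and Cell Ranger, and it was not examined which account describes the counts. Tool versions, the annotation release and the strand setting are not given in the sources used here. All columns of the table were mapped to libraries by name.

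A summed count of at least 10 was required of a gene, which 20454 of 21247 met. The quasi-likelihood test of edgeR 4.0.16 in R 4.3.3 was run on these with a robust glmQLFit, TMM scaling and no covariate, 2-sided, with Benjamini-Hochberg adjustment over all genes at 0.05. CPM values use TMM-scaled library sizes. Factors were 0.922 to 0.954 in ft/ft and 1.04 to 1.09 in ft/ftMyD88-/-. A count of 0 allows up to 3 counts, or 0.102 to 0.183 CPM, for counting error only. Log2 ratios of counts used a pseudocount of 0.5. The paper gives 4 mice per group behind the RNA-seq, which matches the number of libraries, although no label ties a library to an animal. Libraries of a group differed by more than counting noise (chi-square per degree of freedom at least 16.3), so none was a duplicate.

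The 10 genes, the lists and the tests were chosen with earlier results of these data known. Named genes are the 10, *Mid1ip1*, the mutated genes, the 3 called genes with the smallest adjusted p in each pathway list, markers, and by likeness the nearest other of the 10 and the 3 nearest genes overall. *Fads2*, *Fads3*, *Me3*, *Awat2*, *Adig*, *Plin1*, *Tmem79* and *Xist* were named outside that rule or from the marker lists after their values were seen. Not tested for low counts were *Slc2a2*, *Cpt1b* and *Elovl2*, and *Pklr* and *Hsd17b8* were not analysed here. Coordinates are RefSeq's on GRCm38.p6, and promoter sequences are from RefSeq (all 10 genes matched). Simulated data were used to test the fit, with 200 genes changed 2-fold among 20175 tested genes, where it called 182 of the 200 and 8 unchanged genes. The changed genes were drawn, up and down alike, from those with a mean of at least 50 counts. Smaller changes, as estimated for all of the 10 genes but *Acacb*, were not simulated, so the power for them is not known. Alternatives were DESeq2 1.42.0, voom of limma 3.58.1, RLE normalization, library size only, scaling without mitochondrially encoded and muscle genes, filterByExpr, no filter, a block for the replicate number, leaving out single libraries, an adjusted p under 0.01, a log2 fold change of at least 1 in size and a ratio pseudocount of 5.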

Additional observations from a re-analysis of the deposited data

How the results depend on the processing

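Log2 fold changes of *Acacb* (-1.32 to -1.03) and *Acss2* (-0.67 to -0.43) kept their direction and call under all 16 alternatives, and *Me1* (-0.49 to -0.27) lost its call with library size alone. Other values that changed were *Acly*, called by DESeq2 (-0.29, adjusted p = 0.0443), and *Thrsp*, which reversed to -0.13 without ft/ftMyD88-/- replicate 3 and rose to 0.46 without ft/ft replicate 4. The number of the 10 genes called lower, 3, became 1 at a log2 fold change of at least 1 in size. It stayed at 3 with each library left out, and 0 were called higher throughout. Over all genes, 2239 were higher and 2525 lower. Library size alone gave 4638 and 1326, an adjusted p under 0.01 gave 951 and 1350, and a log2 fold change of at least 1 gave 752 and 520. Leaving out 1 library gave 1464 (without ft/ft replicate 4) to 2260 higher and 1851 to 2408 lower. The cause was not tested.

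Replicate numbers did not pair the samples, since correlations of deviations between same-numbered libraries were -0.35, 0.04, 0.07 and -0.03 and only replicate 3 was most like its own number. With the replicate number as a block, 1895 genes were higher and 2144 lower, and the same 3 of the 10 genes were lower (*Acacb* -1.25, *Acss2* -0.61 and *Me1* -0.45). Under the block, exact sign permutation of the 4 pairs cannot give a p below 0.125, which is what *Acacb* over *Acaca* (-1.07) and *Acss2* over *Acly* (-0.31) gave. Leaving out 1 library moved these ratios between -1.19 and -0.995 and between -0.35 and -0.27. Depth limits *Mlxipl* most, at 34 to 173 counts per library.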
